A study of Homo sapiens with 32 samples.

Results

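The DUSP and Sprouty brakes of MAP kinase signalling were read as 10 genes chosen by symbol: the phosphatase genes DUSP1, DUSP4, DUSP5, DUSP6 and DUSP10, the Sprouty genes SPRY1, SPRY2 and SPRY4, and the Sprouty-related genes SPRED1 and SPRED2. They are 10 of 19775 genes with a probe set of their own on the array, and 22 probe sets read them. The members were chosen with earlier results of these data known, so counts of called members are not those of a neutral set. Each gene was read from its brightest probe set, by mean log2 over the 32 arrays. All 10 passed the filter of log2 over 5 in at least 3 arrays, as did 14695 genes in all. DUSP4 passed it through A549 only, since its 3 probe sets stayed under log2 5 in all 24 H1299 arrays.

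RNA of H1299 and A549, both human lung cancer lines, was measured on 32 Affymetrix arrays. Every line carried a short hairpin RNA (shRNA), either S2sh7, directed at the part of SMARCA2 that encodes the ATPase domain, or the control shLuc, directed at luciferase. Every line also expressed a cDNA: an ATPase dead, a bromodomain mutant (BRD MUT) or a wild-type (WT) form of SMARCA2 in H1299 or of SMARCA4 in A549, or GFP as the control. The cells were otherwise untreated and grew as stable lines, in one serum-containing medium. SMARCA2 and SMARCA4 are the alternative ATPases of the SWI/SNF complexes, which move and evict nucleosomes, and both lines are known for inactivating changes of SMARCA4. The 8 H1299 groups had 3 arrays each, labelled biological replicates, and the 8 A549 groups had 1 each. Whether these replicates were separate cultures is not stated, and p-values therefore cover no more than their spread, which may be technical. All H1299 arrays were labelled Batch1 and all A549 arrays Batch2, so line and batch cannot be told apart and the lines were fitted separately.

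Growth factor receptors pass their signal through RAS to a chain of kinases that ends in ERK, and stress reaches the related kinases JNK and p38. DUSP proteins end the signal by removing phosphate from threonine and tyrosine of the active kinase. DUSP6 in the cytoplasm and DUSP5 in the nucleus act on ERK, DUSP1 and DUSP4 in the nucleus act on ERK, JNK and p38 to differing extents, and DUSP10 acts mainly on p38 and JNK. Sprouty proteins act further up, between receptor and RAS, and SPRED proteins bring the RAS inhibitor neurofibromin to the membrane. Several of these genes are themselves switched on by ERK, which makes them negative feedback regulators and, in many tumours, transcripts used to read ERK activity.

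SMARCA2 RNA was checked first, in a probe set that the cDNAs did not raise. It fell with S2sh7 in H1299 by 1.14 log2 with ATPase dead, by 1.44 with BRD MUT, by 1.00 with WT and by 1.30 with GFP, and in A549 by 3.02 over the 4 cDNAs. The largest adjusted p of these 5 was 0.0016 (limma). That probe set gave no reading of whether the cDNAs were expressed. S2sh7 was the only shRNA directed at SMARCA2, so other effects of this hairpin cannot be told apart from loss of SMARCA2. Of 7 carcinoma markers, 4 were over log2 5 in all H1299 arrays (KRT8, KRT18, KRT7 and VIM) and KRT19, EPCAM and CDH1 in none. In A549, 6 were over it in all arrays. The summed intensity of this list was 20747 to 21847 with S2sh7 and 23246 to 24083 with shLuc in H1299, and 27786 to 30920 with S2sh7 and 35693 to 40087 with shLuc in A549. Of 7 markers of leukocytes and endothelium, 1 in H1299 and 5 in A549 were over log2 5 in all arrays of the line, and PTPRC and CDH5 stayed under it in both lines. Their summed intensity was 143 to 166 with S2sh7 and 138 to 161 with shLuc in H1299, and 263 to 335 with S2sh7 and 344 to 398 with shLuc in A549. Array medians were 26.4 to 27.3 in H1299 and 40.1 to 41.2 in A549. A level of log2 5 lay above the median of every H1299 array and under that of every A549 array. Counts and sums of these lists therefore cannot be compared between the lines, and being over log2 5 in A549 does not show expression. In H1299 with GFP, 3 of the 7 carcinoma markers were called lower, beside 16.1% of all genes: KRT7 (-1.30), KRT8 (-0.81) and KRT18 (-0.56). Of 5 tested genes of the second list LYVE1 (0.36), VWF (0.27) and CD3E (0.18) were called higher, beside 13.6%. LYVE1 and VWF stayed under log2 5 in all 24 H1299 arrays and CD3E lay at 4.99 to 5.38, so no rise could be read from them. In A549 with GFP or ATPase dead, 1 carcinoma marker was called higher, VIM (0.47), beside 27% of all genes. The 5 called lower, beside 22.9%, were KRT19 (-2.28), CDH1 (-1.77), KRT8 (-1.54), EPCAM (-1.36) and KRT18 (-0.51). CD14 (-1.54) alone was called in the second list. The part of these markers in the results was not tested. In bulk RNA, fewer cells that express a gene and less of its RNA per cell cannot be told apart.

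Promoter sequence was available in RefSeq (GRCh38.p14) for 8 members, with 13 gene starts, and the 250 bases before each start were searched on both strands. The motifs were the cyclic AMP response element TGACGTCA, its short core TGACG, which also lies inside the full element, the AP-1 element TGANTCA, the core CCGGAA of ETS factor sites, the box TATAAA of many promoters, the box CCAAT bound by NF-Y, and the serum response CArG box. These were found in 1.65%, 21.2%, 6.57%, 14.5%, 10.7%, 32% and 1.16% of 35116 promoter windows of the same length. The windows of the members that rose with S2sh7 under every H1299 cDNA are shown, together with that of DUSP1, the one member with the full cyclic AMP response element. They are DUSP6 (chr12:89352502-89352751, minus strand), DUSP10 at both its starts (chr1:221742090-221742339 and chr1:221736901-221737150, minus strand), SPRY2 at its most upstream start (chr13:80341127-80341376, minus strand), SPRY4 (chr5:142324248-142324497, minus strand) and DUSP1 (chr5:172771196-172771445, minus strand). Capitals mark the motifs found, on either strand.
DUSP6: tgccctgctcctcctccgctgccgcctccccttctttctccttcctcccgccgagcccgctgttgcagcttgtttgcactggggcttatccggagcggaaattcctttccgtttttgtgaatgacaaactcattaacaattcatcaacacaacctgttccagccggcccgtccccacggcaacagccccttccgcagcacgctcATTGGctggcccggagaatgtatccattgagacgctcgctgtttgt
DUSP10 upstream start: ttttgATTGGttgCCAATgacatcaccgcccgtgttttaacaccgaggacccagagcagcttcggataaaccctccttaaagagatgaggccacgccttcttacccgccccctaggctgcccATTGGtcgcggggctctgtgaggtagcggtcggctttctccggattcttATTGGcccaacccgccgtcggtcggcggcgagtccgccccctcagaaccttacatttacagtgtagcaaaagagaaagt
DUSP10 downstream start: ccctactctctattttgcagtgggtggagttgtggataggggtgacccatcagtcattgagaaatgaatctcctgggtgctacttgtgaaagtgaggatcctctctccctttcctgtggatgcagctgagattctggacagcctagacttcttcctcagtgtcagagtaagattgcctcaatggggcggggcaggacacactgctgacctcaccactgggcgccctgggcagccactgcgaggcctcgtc
SPRY2: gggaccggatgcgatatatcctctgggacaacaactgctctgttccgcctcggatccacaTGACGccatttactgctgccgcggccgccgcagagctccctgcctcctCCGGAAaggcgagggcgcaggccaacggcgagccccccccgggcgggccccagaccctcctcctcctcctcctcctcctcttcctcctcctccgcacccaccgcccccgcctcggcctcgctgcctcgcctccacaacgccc
SPRY4: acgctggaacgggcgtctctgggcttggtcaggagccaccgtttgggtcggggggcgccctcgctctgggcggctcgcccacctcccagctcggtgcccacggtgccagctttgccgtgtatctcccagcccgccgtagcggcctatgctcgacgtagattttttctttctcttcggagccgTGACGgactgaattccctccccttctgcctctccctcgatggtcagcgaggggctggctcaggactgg
DUSP1: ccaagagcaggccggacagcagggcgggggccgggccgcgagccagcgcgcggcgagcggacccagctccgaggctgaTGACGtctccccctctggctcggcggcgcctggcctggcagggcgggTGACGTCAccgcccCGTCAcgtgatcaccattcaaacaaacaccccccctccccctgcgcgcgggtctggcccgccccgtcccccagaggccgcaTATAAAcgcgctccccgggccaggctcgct
DUSP6, the member with the largest change in A549, had a single CCAAT match in this window, on the opposite strand, 46 to 42 bases before the start. The upstream DUSP10 window held 4 CCAAT matches and the downstream one none of the 7 motifs. SPRY2 had a short core and an ETS core at its most upstream start. The windows of its other starts, of 3 in all, held none of the 7 motifs and are not shown. SPRY4 had a short core, and DUSP1 the full element 125 to 118 bases and TATAAA 30 to 25 bases before its start. No member window held an AP-1 or CArG match. A match is a string of letters and not a binding site, and most motifs were common in all windows.

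In H1299, the ERK phosphatase DUSP6, the p38 and JNK phosphatase DUSP10 and the Sprouty genes SPRY2 and SPRY4 rose with S2sh7 whichever cDNA was present. The nuclear ERK phosphatase DUSP5 fell. DUSP10 moved furthest, by 2.35-fold with ATPase dead, 1.93-fold with BRD MUT, 2.13-fold with WT and 2.49-fold with GFP. For these 5 genes the S2sh7 and shLuc arrays overlapped with none of the 4 cDNAs. No share of all genes without overlap was set beside this, here or in later statements of overlap. The 5 genes were named by their differences, so the lack of overlap adds no support to them. With an adjusted p under 0.05 over all genes, here a call, 6 members were called with ATPase dead, 6 with BRD MUT, 7 with WT and 5 with GFP. The share of all genes called in the same comparisons was 28.4%, 23.7%, 26.5% and 29.7%. These shares include genes that, like DUSP4, passed the filter through A549 only. The median log2 difference of the 10 members was 0.12, 0.01, 0.09 and 0.03 in that order of cDNAs, beside 0.02, 0.01, 0.02 and 0.01 for all genes tested. In each comparison 4 members were called higher, and 2, 2, 3 and 1 were called lower.

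DUSP10 stood at log2 7.58, 7.54 and 7.54 in S2sh7 arrays with ATPase dead, against 6.36, 6.31 and 6.29 in shLuc arrays with ATPase dead. With BRD MUT it was 7.23, 7.18 and 7.10 with S2sh7, against 6.19, 6.20 and 6.28 with shLuc, and with WT 7.19, 7.36 and 7.33 with S2sh7, against 6.15, 6.17 and 6.29 with shLuc. With GFP it was 7.72, 7.79 and 7.79 with S2sh7, against 6.33, 6.52 and 6.49 with shLuc. The lowest of the 12 S2sh7 arrays thus lay above the highest of the 12 shLuc arrays. The differences were 1.23, 0.95, 1.09 and 1.32 log2 with ATPase dead, BRD MUT, WT and GFP (SE 0.053 each), with a largest adjusted p of 1.07e-10 (limma). Under S2sh7 the group means ran from 7.77 with GFP to 7.55 with ATPase dead, 7.30 with WT and 7.17 with BRD MUT, and neighbours in this order did not overlap except WT and BRD MUT. The second DUSP10 probe set gave 1.02 with GFP (SE 0.082).

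DUSP6 was at log2 10.06, 9.99 and 9.95 in S2sh7 arrays with ATPase dead, against 9.49, 9.52 and 9.49 in shLuc arrays with ATPase dead. With GFP it was at 10.07, 10.11 and 10.00 with S2sh7, against 9.52, 9.52 and 9.51 with shLuc. With the other cDNAs the S2sh7 arrays were lower, at 9.84, 9.86 and 9.90 with BRD MUT and 9.89, 9.87 and 9.88 with WT, against 9.47 to 9.57 with shLuc and BRD MUT and 9.49 to 9.54 with shLuc and WT. The shLuc means hardly differed between cDNAs (9.50 with ATPase dead, 9.50 with BRD MUT, 9.52 with WT and 9.51 with GFP). The knockdown differences were 0.50, 0.36, 0.37 and 0.54 log2 with ATPase dead, BRD MUT, WT and GFP (SE 0.034 each, largest adjusted p = 1.42e-07, limma). All 3 DUSP6 probe sets were called, at 0.54, 0.57 and 0.54 with GFP.

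SPRY2, which binds the adaptor proteins that link receptors to RAS, had log2 levels of 9.76, 9.77 and 9.73 with S2sh7 and ATPase dead, against 9.32, 9.33 and 9.26 with shLuc and ATPase dead. With GFP it had 9.80, 9.83 and 9.72 with S2sh7, against 9.29, 9.31 and 9.33 with shLuc. The groups stood apart with each cDNA. The differences were 0.45 with ATPase dead, 0.31 with BRD MUT, 0.37 with WT and 0.48 with GFP (SE 0.033 each, largest adjusted p = 6.56e-07). SPRY4, a close relative, had 8.43, 8.38 and 8.48 with S2sh7 and GFP, against 8.06, 8.01 and 8.09 with shLuc and GFP. Its differences were 0.35, 0.42, 0.25 and 0.38 with ATPase dead, BRD MUT, WT and GFP (SE 0.042 each, largest adjusted p = 0.000132). Over all cDNAs, SPRY4 ran from 8.19 to 8.49 with S2sh7 (median 8.43) and from 7.93 to 8.14 with shLuc (median 8.05), without overlap.

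DUSP5 went the other way. It stood at log2 8.82, 8.78 and 8.78 with S2sh7 and GFP, against 9.45, 9.39 and 9.37 with shLuc and GFP. Every S2sh7 array was lower than every shLuc array. With S2sh7 and WT it was at 8.93, 8.89 and 9.06, against 9.60, 9.61 and 9.58 with shLuc and WT, and these 3 shLuc arrays lay above the 9 other shLuc arrays, the highest of which was at 9.45. The differences were -0.51 with ATPase dead, -0.47 with BRD MUT, -0.64 with WT and -0.61 with GFP (SE 0.040 each, largest adjusted p = 3.71e-08). The array holds 1 probe set for DUSP5, so no second reading was possible.

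**Figure D1:**
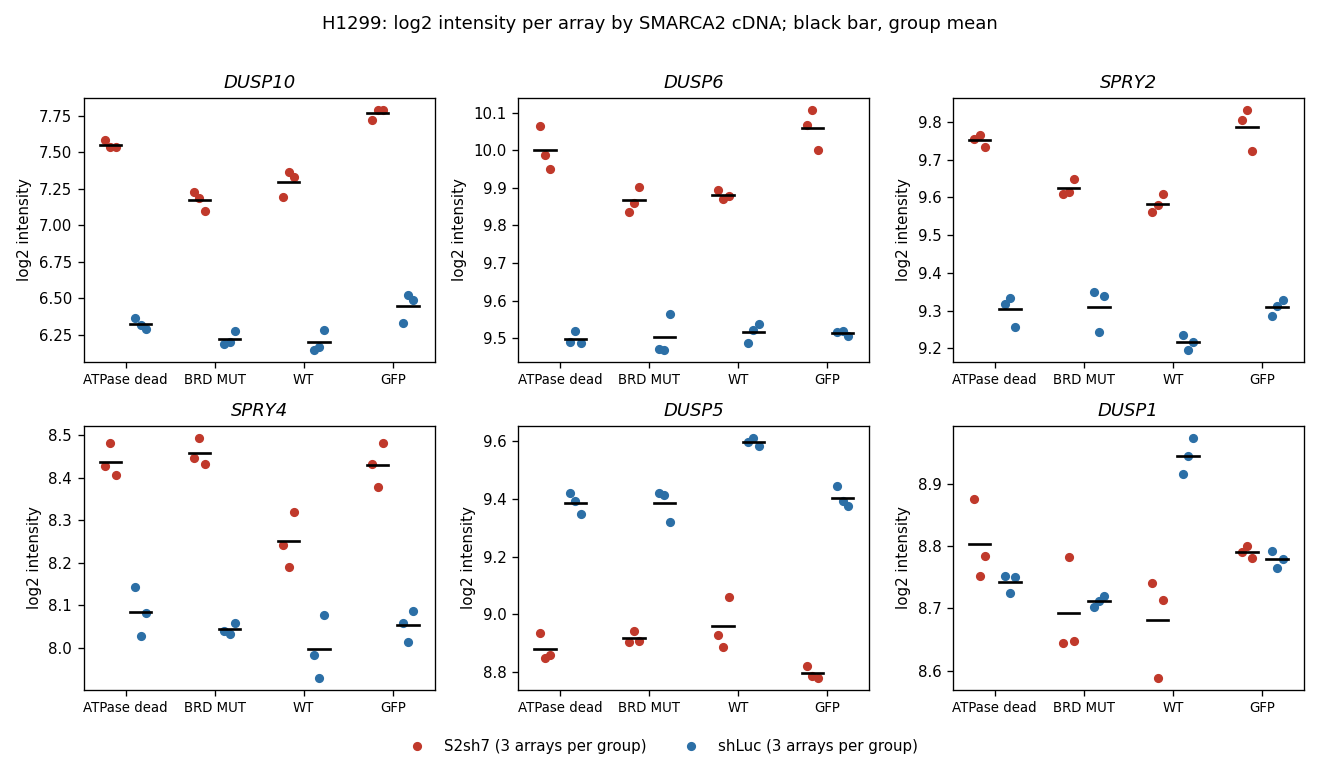
Log2 intensity of 6 members in the 24 H1299 arrays, by SMARCA2 cDNA on the x axis; red points are S2sh7 arrays, blue points shLuc arrays, and the black bar is the mean of 3. DUSP10, DUSP6, SPRY2 and SPRY4 lie higher with S2sh7 under each cDNA and DUSP5 lower, and DUSP1 separates with WT alone; each panel has its own log2 scale.

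The remaining members moved less in H1299. SPRED1, which recruits neurofibromin, differed by -0.13 with ATPase dead, -0.14 with BRD MUT, -0.16 with WT and -0.10 with GFP (SE 0.047 each). The first 3 were called (adjusted p = 0.0473, 0.0299 and 0.0153, limma) and the last was not (adjusted p = 0.124). These calls were lost in 11, 7 and 3 of 16 alternatives with ATPase dead, BRD MUT and WT. The 3 SPRED1 probe sets gave -0.10, 0.10 and -0.20 with GFP, so they did not share a direction. DUSP1, an immediate early gene, fell only with WT, to log2 8.74, 8.59 and 8.71 with S2sh7, against 8.92, 8.94 and 8.97 with shLuc (difference -0.26, SE 0.040, adjusted p = 5.77e-05). Its differences were 0.06, -0.02 and 0.01 with ATPase dead, BRD MUT and GFP. The WT value came from the brightest of 3 DUSP1 probe sets; the others gave -0.06 and 0.12 and were not called. SPRY1 (levels of log2 5.00 to 5.58 with S2sh7 and 5.01 to 5.41 with shLuc, near the filter) and SPRED2 (8.70 to 8.85 with S2sh7 and 8.70 to 8.85 with shLuc) were called with no cDNA, at 0.19 or less in size. DUSP4 lay between log2 3.97 and 4.28 with S2sh7 and 3.89 and 4.38 with shLuc, so that no change could be read.

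Whether a SMARCA2 cDNA changed the response was tested as the difference of 2 knockdown effects, and the 3 tests share the GFP arrays. With ATPase dead against GFP 0 members were called (0 at an unadjusted p under 0.05), beside 0.0612% of all genes. With BRD MUT against GFP 1 was, DUSP10, beside 0.558%, and with WT against GFP 1 was, DUSP1, beside 2.28%. The rise of DUSP10 was 0.37 smaller with BRD MUT than with GFP (difference -0.37, SE 0.075, adjusted p = 0.0233, limma). It was -0.31 to -0.36 without shLuc GFP replicate 1, shLuc BRD MUT replicate 3, S2sh7 GFP replicate 2 or 3, or S2sh7 BRD MUT replicate 3, and then no longer called (adjusted p = 0.0625 to 0.0779). The call was also lost with the mean of both DUSP10 probe sets (-0.33, adjusted p = 0.073) and with only the arrays compared (adjusted p = 0.127). DUSP10 thus kept its rise with every cDNA, and only the size was in question. With WT the difference for DUSP10 was -0.23 (95% confidence interval -0.38 to -0.07, adjusted p = 0.138) and with ATPase dead -0.09 (-0.25 to 0.07, adjusted p = 0.685). For DUSP6 it was -0.04 with ATPase dead (-0.14 to 0.06), -0.18 with BRD MUT (-0.28 to -0.08) and -0.18 with WT (-0.28 to -0.08), with adjusted p = 0.789, 0.129 and 0.0602. For DUSP6 the intervals with BRD MUT and WT lay below 0 without a call over all genes. The DUSP6 difference with WT was called in 6 alternatives, among them repeated quantile normalization and a filter of log2 over 6. For DUSP1 the difference with WT was -0.28 (SE 0.057, adjusted p = 0.0147), and -0.02 (adjusted p = 0.888) with the mean of its probe sets.

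Under S2sh7 the cDNAs were also set against each other directly. ATPase dead exceeded WT in 3 members, beside 3.02% of all genes: DUSP10 by 0.26 (SE 0.053, adjusted p = 0.0093), SPRY2 by 0.17 (SE 0.033, adjusted p = 0.00621) and SPRY4 by 0.19 (SE 0.042, adjusted p = 0.0164). The ATPase dead and WT arrays overlapped for none of the 3, which adds no support, since the 3 were picked by their calls. With shLuc, the ATPase dead and WT means were 6.32 and 6.20 for DUSP10, 9.30 and 9.22 for SPRY2, and 8.08 and 8.00 for SPRY4. ATPase dead thus lay above WT there too, and the change in this gap with S2sh7 was not tested. For DUSP6 the gap was 0.12 and not called (adjusted p = 0.0646). Without S2sh7 WT replicate 1, DUSP10 (0.21, adjusted p = 0.0591) and SPRY4 (0.18, adjusted p = 0.0589) lost the call and 1 member was left; SPRY4 lost it also without S2sh7 WT replicate 2 (0.16) or S2sh7 ATPase dead replicate 2 (0.17). With only the 6 arrays compared in the fit, 0 of the 3 were called. BRD MUT against WT gave 0 called members (2 at an unadjusted p under 0.05), beside 0.0612% of all genes, the closest being SPRY4 at 0.21 (adjusted p = 0.0601).

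With the control shRNA, no cDNA moved a member by more than 0.25 log2. ATPase dead against GFP gave 0 called members (1 at an unadjusted p under 0.05), beside 0.122% of all genes. BRD MUT against GFP gave 1, beside 1.37%: DUSP10 was at 6.19, 6.20 and 6.28 with BRD MUT, against 6.33, 6.52 and 6.49 with GFP (difference -0.23, SE 0.053, adjusted p = 0.0376). WT against GFP gave 3, beside 2.74%: DUSP10 was 0.25 lower (adjusted p = 0.0159), DUSP5 0.19 higher (adjusted p = 0.0124) and DUSP1 0.17 higher (adjusted p = 0.0321). Each of these calls depended on single arrays. The DUSP1 call was lost without any 1 of the 6 arrays (adjusted p = 0.0645 to 0.103). The DUSP10 calls were lost without shLuc GFP replicate 2 (-0.21 for WT and -0.19 for BRD MUT) or replicate 3 (-0.22 and -0.20). The WT call was lost also without shLuc WT replicate 1 or 2 (-0.22 and -0.23), and the BRD MUT call without any of its own 3 arrays (-0.21, -0.22 and -0.25). The DUSP5 call was lost without shLuc GFP replicate 3 (0.18) or shLuc WT replicate 2 (0.19).

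A549 showed the largest change of any member. DUSP6 with S2sh7 stood at log2 10.30 with ATPase dead, 9.22 with BRD MUT, 8.92 with WT and 10.30 with GFP, against 7.53, 7.53, 7.68 and 7.64 with shLuc and the same cDNAs. The gain was 6.83-fold with ATPase dead and 6.31-fold with GFP, but 3.21-fold with BRD MUT and 2.37-fold with WT. The 4 shLuc arrays lay within 0.15 log2 of each other, while the S2sh7 arrays parted by cDNA: ATPase dead and GFP together at the top, BRD MUT and WT more than 1 log2 lower.

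Since each A549 line had 1 array, the cDNAs were put into classes by their label: ATPase-competent SMARCA4 (WT or BRD MUT), and none (GFP or ATPase dead). The use of these classes was decided with earlier results of these data known. Tests within and between the classes are therefore not independent of those results. The 2 lines of a class stood for each other, which left 4 residual degrees of freedom, and a difference between single lines other than the cDNA cannot be told apart from the cDNA. With WT or BRD MUT 5 members were called, beside 21.3% of all genes, and with GFP or ATPase dead 9 were, beside 49.8%. The median log2 difference of the 10 members was 0.04 and 0.47, beside 0.01 and 0.004 for all genes tested. An additive fit over the 4 cDNAs, with 3 residual degrees of freedom, called 5 members, beside 21.1%. That count was 0 without the ATPase dead pair, 1 without the GFP pair, 2 without the WT pair and 3 without the BRD MUT pair.

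DUSP6 rose by 1.47 log2 with WT or BRD MUT (SE 0.10, adjusted p = 0.000182) and by 2.71 with GFP or ATPase dead (SE 0.10, adjusted p = 9.67e-07). The other DUSP6 probe sets gave 2.85 and 2.54 with GFP or ATPase dead. SPRY4 was at log2 7.58, 6.79, 6.98 and 7.51 with S2sh7 and ATPase dead, BRD MUT, WT and GFP, against 6.60, 6.61, 6.60 and 6.45 with shLuc. It rose by 1.02 with GFP or ATPase dead (SE 0.083, adjusted p = 3.16e-05), while with WT or BRD MUT the difference was 0.27 (adjusted p = 0.0504), and was called in 6 of 12 alternatives, among them repeated quantile normalization and a filter of log2 over 6. SPRY2 rose in both classes, by 0.42 with WT or BRD MUT and 0.38 with GFP or ATPase dead (SE 0.11 each, adjusted p = 0.0299 and 0.0203). The SPRY2 gain was 0.13, 0.45, 0.38 and 0.62 with ATPase dead, BRD MUT, WT and GFP. The call with GFP or ATPase dead was lost without the GFP, WT or BRD MUT pair (0.13, 0.38 and 0.38), and that with WT or BRD MUT without the WT or BRD MUT pair (0.45 and 0.38).

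DUSP10, which rose in H1299, fell in A549. With S2sh7 it was at log2 6.77, 6.78, 6.92 and 7.06 with ATPase dead, BRD MUT, WT and GFP, against 7.77, 7.91, 7.96 and 7.81 with shLuc. In all 4 pairs the S2sh7 array was lower, with differences between -1.13 log2 with BRD MUT and -0.76 with GFP. The differences were -1.08 with WT or BRD MUT (adjusted p = 0.000481) and -0.88 with GFP or ATPase dead (adjusted p = 0.000165; SE 0.097 each), and the second probe set gave -0.90 with GFP or ATPase dead. DUSP1 fell too, to 11.87 to 12.07 with S2sh7, against 12.39 to 12.57 with shLuc, with differences of -0.54 with WT or BRD MUT and -0.48 with GFP or ATPase dead (adjusted p = 0.0047 and 0.00215). The call with WT or BRD MUT was lost without the BRD MUT pair (-0.43), and that with GFP or ATPase dead without the GFP pair (-0.38). A second DUSP1 probe set gave -0.51 with GFP or ATPase dead, not called (adjusted p = 0.0635), and the other gave -0.03.

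DUSP5, lower with S2sh7 in H1299, had log2 10.91, 9.94, 10.13 and 10.75 in A549 with S2sh7 and ATPase dead, BRD MUT, WT and GFP, against 9.97, 9.99, 10.22 and 10.23 with shLuc. It rose with GFP or ATPase dead (0.73, SE 0.12, adjusted p = 0.00139) and differed by -0.06 with WT or BRD MUT (adjusted p = 0.756). The 2 SPRED genes rose with GFP or ATPase dead, SPRED1 by 0.57 (SE 0.064) and SPRED2 by 0.75 (SE 0.080). With WT or BRD MUT the values were 0.12 (adjusted p = 0.213) and 0.35 (adjusted p = 0.0198), and the SPRED2 call was lost without the WT (0.47) or BRD MUT pair (0.23). With the mean of all its probe sets SPRED2 was at -0.02 with WT or BRD MUT (adjusted p = 0.868) and at 0.32 with GFP or ATPase dead (adjusted p = 0.00736); the dimmer probe sets stayed under log2 5. The 3 SPRED1 probe sets gave 0.57, 0.12 and 0.96 with GFP or ATPase dead. SPRY1 was the Sprouty gene that fell: it stood at 5.17 and 5.19 with S2sh7 and ATPase dead or GFP, against 6.06 and 5.89 with shLuc (difference -0.80, SE 0.076, adjusted p = 7.44e-05). These SPRY1 values with S2sh7 lay near the filter and under the median of every A549 array, which limits how the size of the fall can be read. Its second probe set gave -0.14 and was not called (adjusted p = 0.283). DUSP4 was at 8.94, 9.43, 9.70 and 9.38 with S2sh7 and ATPase dead, BRD MUT, WT and GFP, against 9.48, 9.56, 9.66 and 9.61 with shLuc, and was not called in either class (-0.05 with WT or BRD MUT and -0.39 with GFP or ATPase dead, adjusted p = 0.858 and 0.0586). The DUSP4 difference with GFP or ATPase dead was called with repeated quantile normalization and with a filter of log2 over 6.

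**Figure D2:**
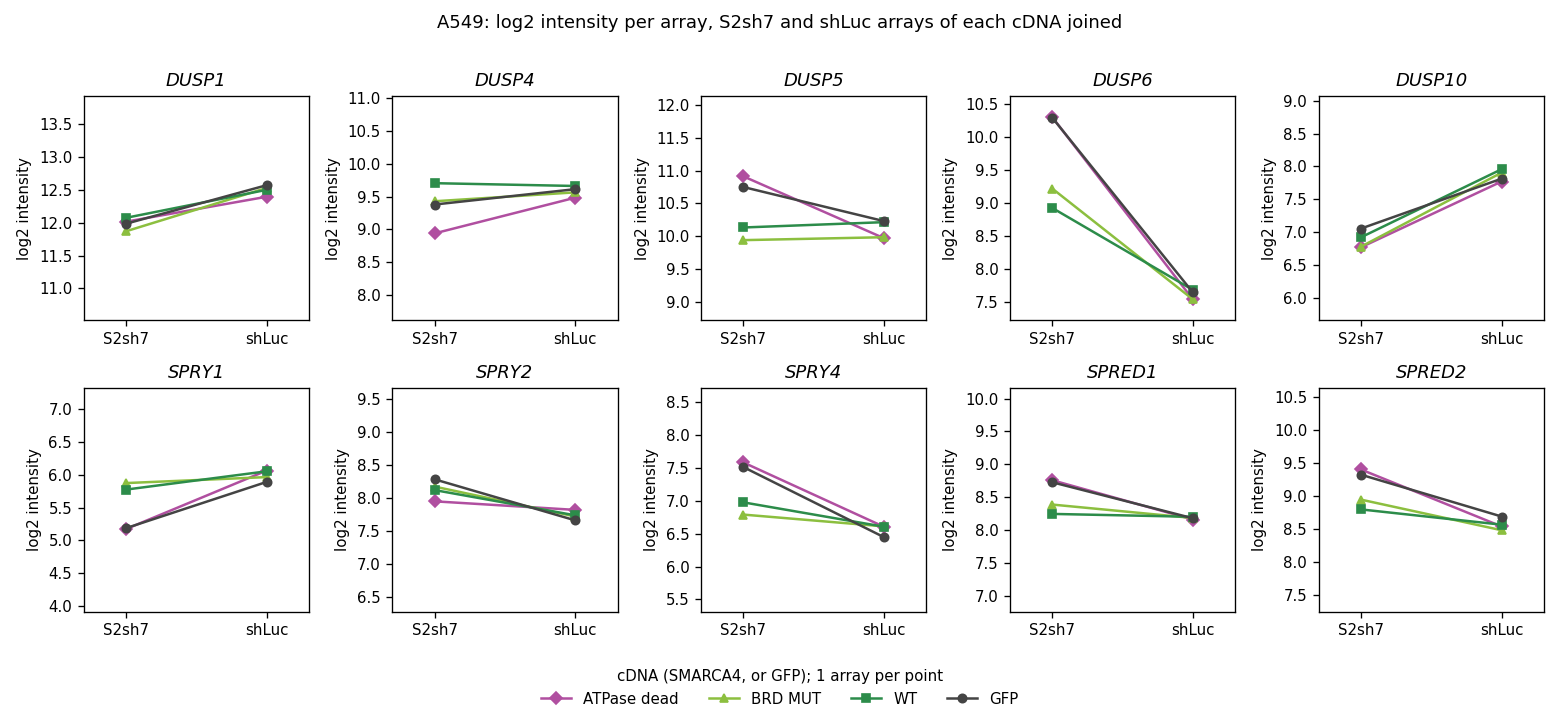
Log2 intensity of the 10 members in the 8 A549 arrays; each line joins the S2sh7 array (left) and the shLuc array (right) of 1 cDNA, and all panels span the same number of log2 units. DUSP6 with S2sh7 lies at 10.30 with ATPase dead and GFP, and at 9.22 and 8.92 with BRD MUT and WT, while the 4 shLuc arrays lie together.

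The difference between the classes was itself tested: 6 members were called, beside 23.9% of all genes. DUSP6 differed by -1.25 log2 (SE 0.14, adjusted p = 0.000829), so that the competent class kept the smaller rise. DUSP5 differed by -0.79 (SE 0.17, adjusted p = 0.0128), SPRY4 by -0.75 (SE 0.12, adjusted p = 0.00334), SPRED1 by -0.45 (SE 0.091, adjusted p = 0.01) and SPRED2 by -0.40 (SE 0.11, adjusted p = 0.0369). SPRY1 differed by 0.61 (SE 0.11, adjusted p = 0.00544), a smaller fall in the competent class, at levels near the filter. For DUSP10 (-0.20, 95% confidence interval -0.52 to 0.12), DUSP1 (-0.06, -0.34 to 0.22), SPRY2 (0.04, -0.31 to 0.40) and DUSP4 (0.34, -0.14 to 0.82) no difference was called. DUSP6 and SPRY4 kept the call when any 1 pair was left out (-1.47 to -1.03 and -0.84 to -0.65). The other 4 calls each needed particular pairs. DUSP5 lost it without the WT, BRD MUT or ATPase dead pair (-0.77, -0.81 and -0.58), SPRED1 without the GFP, WT or ATPase dead pair (-0.47, -0.37 and -0.42), SPRY1 without the BRD MUT pair (0.52) and SPRED2 without any pair (-0.52 to -0.29). The count was 3 without the WT, BRD MUT or ATPase dead pair.

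The classes were also compared within each shRNA. Under S2sh7, WT or BRD MUT differed from GFP or ATPase dead in 6 members, beside 38.7% of all genes: DUSP6 by -1.23, DUSP5 by -0.79, SPRY4 by -0.66, SPRED2 by -0.49, SPRED1 by -0.43 and SPRY1 by 0.64, with a largest adjusted p of 0.00198. DUSP4 (0.41) was not called here, but was with the mean of its probe sets, a filter of log2 over 6 or repeated quantile normalization. Under shLuc 0 members and 0 of 14695 genes were called in limma (0%), with 0 members and 746 genes at an unadjusted p under 0.05, and the DUSP6 difference was 0.02 (95% confidence interval -0.22 to 0.26).

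**Figure D3:**
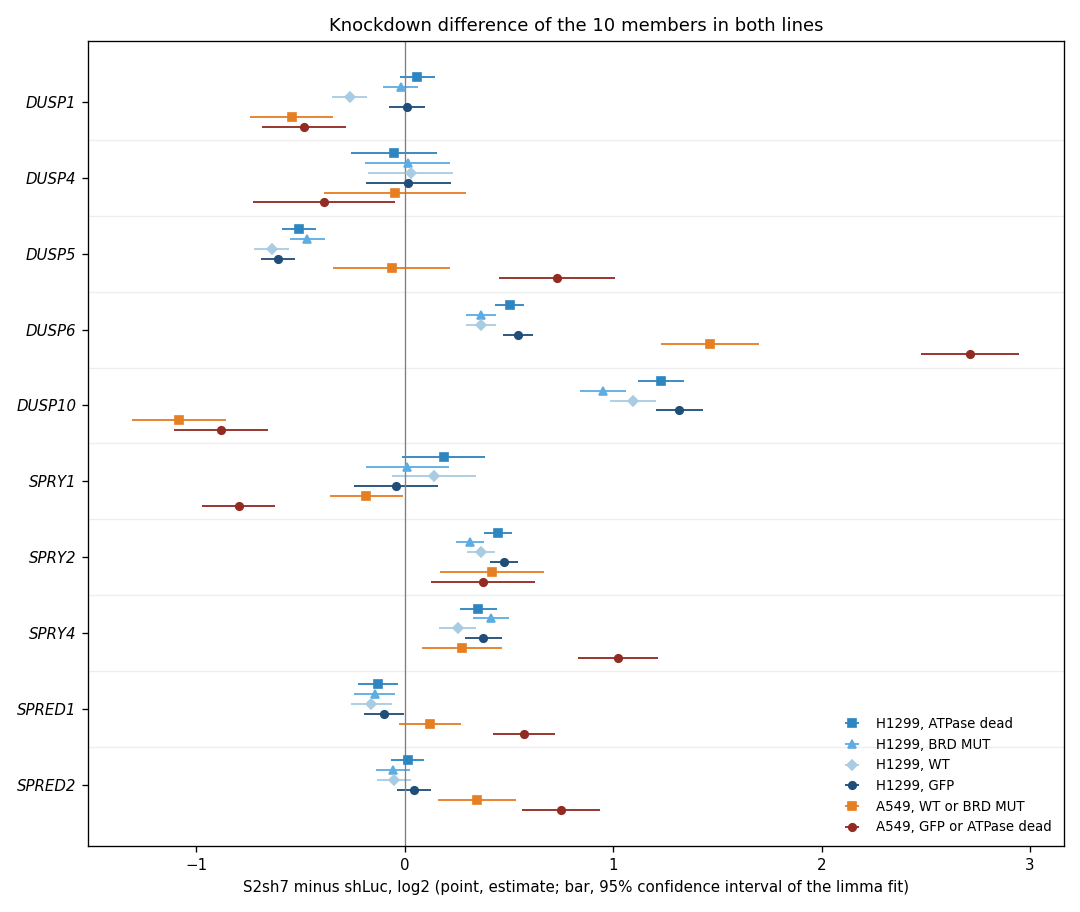
S2sh7 minus shLuc in log2 (x axis) for the 10 members (y axis), with 95% confidence intervals from limma; blue marks are the 4 H1299 cDNAs, orange and dark red marks the 2 A549 classes. DUSP6, SPRY2 and SPRY4 lie right of 0 in both lines, and DUSP10 lies right of 0 in H1299 (0.95 to 1.32) and left of it in A549 (-1.08 and -0.88).

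**Figure D4:**
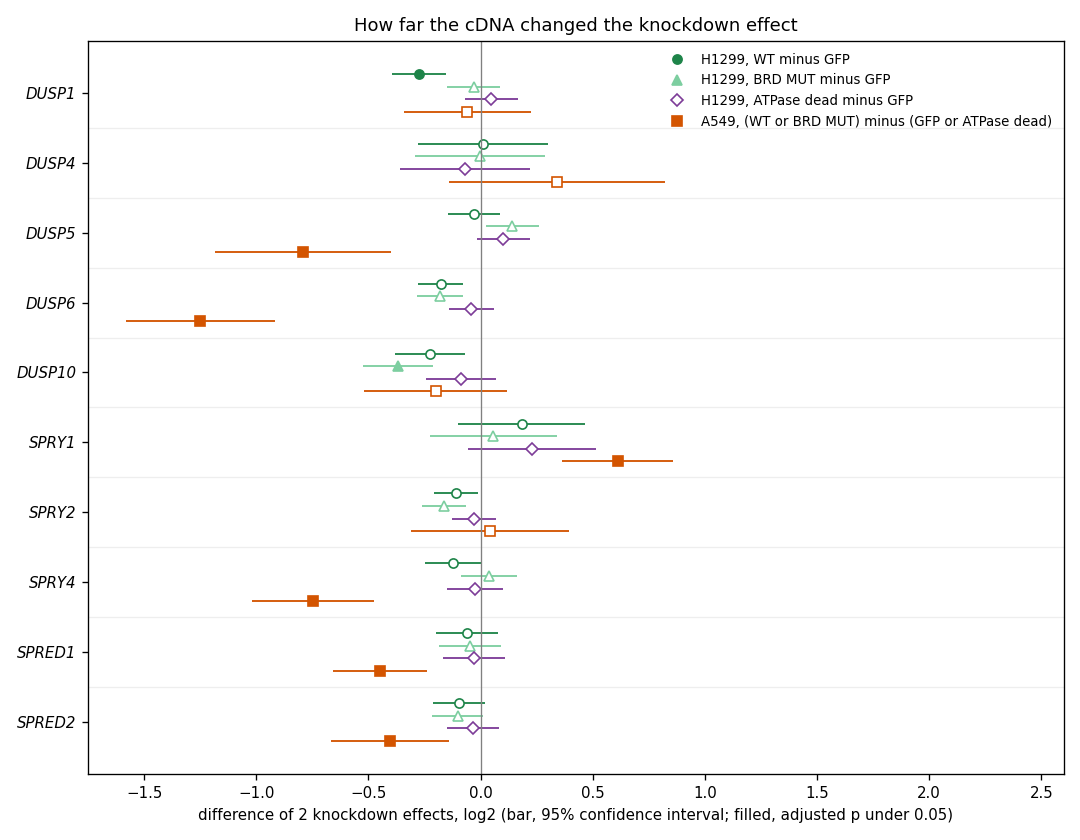
Difference of 2 knockdown effects in log2 (x axis) for the 10 members, with 95% confidence intervals; filled marks passed an adjusted p of 0.05. In A549 (orange) 6 members are filled, DUSP6 furthest at -1.25, and in H1299 the filled marks are DUSP1 with WT (-0.28) and DUSP10 with BRD MUT (-0.37).

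Set side by side, without a test between lines, DUSP6, SPRY2 and SPRY4 were higher with S2sh7 in all 12 H1299 arrays, read against the mean of their shLuc group, and in all 4 A549 pairs. DUSP10 was higher in 12 of 12 H1299 arrays and in 0 of 4 A549 pairs. DUSP5 was higher in 0 of 12 H1299 arrays and in 2 of 4 A549 pairs, those with GFP and ATPase dead. SPRED1 was higher in 0 of 12 and 4 of 4, a contrast that in H1299 rests on differences of 0.16 log2 or less. No share of all genes was set beside these counts of arrays and pairs. The levels with shLuc differed as well: DUSP4 was at 9.48 to 9.66 in A549 but under log2 5 in H1299, and DUSP6 at 7.53 to 7.68 in A549 and 9.47 to 9.57 in H1299, values that carry the line and the batch together.

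**Figure D5:**
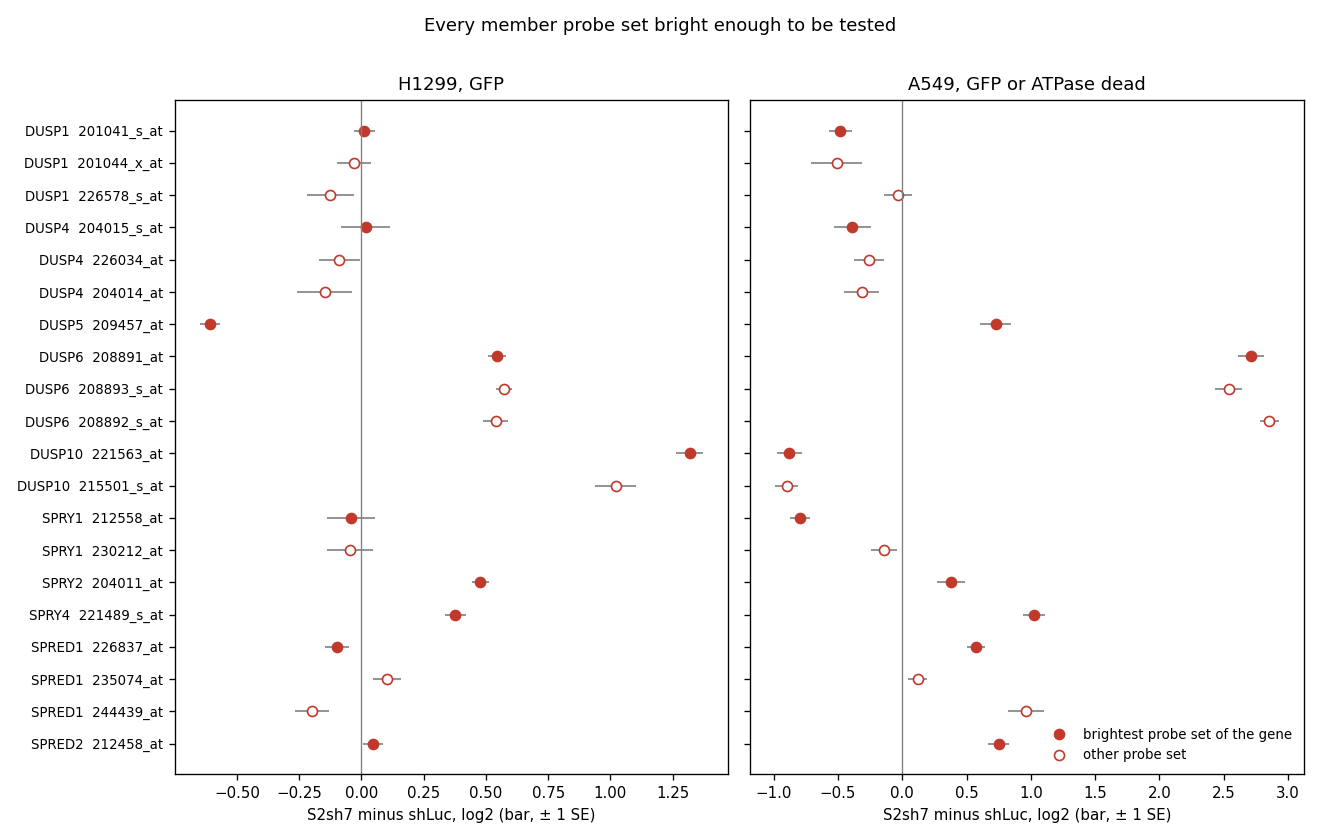
S2sh7 minus shLuc in log2 (x axis, bar ± 1 SE) for the 20 member probe sets that could be tested, with the brightest of each gene filled; left, H1299 with GFP, right, A549 with GFP or ATPase dead. The 3 DUSP6 probe sets lie together in both lines, and the 2 DUSP10 probe sets share a direction in each line but lie apart in H1299. Those of SPRED1, and of SPRY1 and DUSP1 in A549, lie apart too.

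Other genes of the pathway were read from lists that, like the members, were chosen with earlier results of these data known. Of the other DUSP, Sprouty and SPRED genes, 9 were tested, and in H1299 with GFP 2 were higher, beside 13.6% of all genes, and 2 lower, beside 16.1%. DUSP3 (0.26) and DUSP22 (0.12) were higher and DUSP7 (-0.32), another cytoplasmic ERK phosphatase, and DUSP14 (-0.16) lower. In A549 with GFP or ATPase dead 2 were higher, beside 27% of all genes, and 4 lower, beside 22.9%. DUSP14 stood at 1.01 there (SE 0.072, adjusted p = 1.67e-05), and DUSP16, a JNK phosphatase, at -1.48 (SE 0.18, adjusted p = 0.000293). In the test between the A549 classes 0 of these were higher, beside 12% of all genes, and 1 lower, beside 11.9%, namely DUSP14 (-0.62).

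Transcripts commonly used to read ERK output were also counted. In H1299 with GFP, 3 of 16 were higher, beside 13.6% of all genes, and 9 lower, beside 16.1% (median -0.15, beside 0.01 for all genes tested), led by the immediate early genes IER3 (-1.30), EGR1 (-0.94), FOSL1 (-0.71) and MAFF (-0.78). In A549 with GFP or ATPase dead, 8 of 16 were higher, beside 27% of all genes, and 5 lower, beside 22.9% (median 0.65, beside 0.004), with MAFF at 2.82, the pleckstrin homology gene PHLDA1 at 2.01, the ETS factor ETV5 at 1.13 and FOS at -3.82. Several genes went the same way in both lines, of which EGR1 (-1.30 in A549) and FOS (-0.75 in H1299) are named after their values were seen. Between the A549 classes 4 were higher, beside 12% of all genes, and 7 lower, beside 11.9%, with FOS at 3.12 and MAFF at -2.04. Of 4 tested EGF family ligands in H1299 with GFP, TGFA (-0.84) and HBEGF (-0.91) were lower and 0 were higher. In A549 with GFP or ATPase dead HBEGF (1.76) and NRG1 (0.74) were higher and TGFA (-1.34) lower. Between the A549 classes HBEGF differed by -1.79 and TGFA by 1.40.

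Receptors, adaptors and kinases were read in the same way. The shares of all genes called higher and lower, 13.6% and 16.1% in H1299 with GFP and 27% and 22.9% in A549 with GFP or ATPase dead, apply to each of their counts, and several counts lay near them. Of 20 genes from receptors to RAS, 5 were higher and 4 lower in H1299 with GFP, among them ERBB3 (0.60), RRAS (0.33), SHC1 (0.17) and MET (-0.21). In A549 with GFP or ATPase dead 11 were higher and 3 lower, among them the ubiquitin ligase genes CBLB (1.67) and CBL (0.95), which down-regulate receptors, and the receptors FGFR4 (-2.14) and FGFR3 (-2.07). Of 12 RAF, MEK, ERK and scaffold genes, 3 were higher and 2 lower in H1299 with GFP, none by more than 0.18 log2 among the 4 with the smallest adjusted p (MAP2K2, IQGAP1 and PEBP1 higher, MAP2K1 lower). In A549 4 were higher and 4 lower, with IQGAP1 at 0.46, RPS6KA3 at -1.01, ARAF at -0.78 and KSR1 at -0.74. Of 13 JNK and p38 pathway kinases, the substrates and activators tied to DUSP10, 3 were higher and 2 lower in H1299 with GFP, with MAPK8, which encodes a JNK, at -0.56 and the p38 gene MAPK11 at 0.32. In A549 4 were higher and 4 lower, with the p38 activator MAP2K6 at -2.52 and MAP3K7 at 0.62. Between the A549 classes MAP2K6 differed by 2.45 (SE 0.19).

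The 8 H1299 group means of DUSP10, DUSP5, SPRY2 and DUSP6 spanned at least 0.5 log2, and the genes with the most similar pattern were named by Pearson correlation over those 8 means. For DUSP10 these were TMEM231 (0.995), CRH (0.995) and IFT57 (0.994), and for DUSP6 KLHL36 (0.996), IFT57 (0.995) and TM4SF1 (0.995). For DUSP5 they were ZNF330 (0.999), PABPC3 (0.998) and CHIC2 (0.997), and for SPRY2 PRRC2B, HYAL2 (both 0.997) and AHCY (0.996). The 8 means share one split by shRNA, so coefficients of this size describe that split and nothing more.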

How the data were processed

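Arrays were Affymetrix HG-U133 Plus 2.0, hybridised with biotinylated RNA from a 3' in vitro transcription kit, per the labels' protocols. The deposited values are intensities per probe set on a linear scale, made by the authors with RMA; RMA and limma are named in the submitters' processing notes, but their versions are not given in the sources used here. Array medians were 26.4 to 27.3 in H1299 and 40.1 to 41.2 in A549. The log2 of each value was taken with no pseudocount. Gene symbols came from the array annotation: 41097 of 54675 probe sets had 1 symbol, 1801 several and 11777 none, and the last 2 kinds were not used. The number of arrays limits the precision.

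Each line was fitted in limma 3.58.1 (R 4.3.3) over all 14695 genes with Benjamini-Hochberg adjustment. H1299 had 1 mean per group over 24 arrays, with a median residual SD of 0.0703 log2. A549 had additive terms for cDNA and shRNA, or 4 means by shRNA and cDNA class (median residual SD 0.108 and 0.0766). The fits were also run on simulated data with independent noise and known shifts. Those data held no differences between single A549 lines of a class, so that run says nothing about such differences. The members, lists, classes and alternatives were chosen with earlier results of these data known. All 10 members are reported. Other genes are up to 4 called ones per list with the smallest adjusted p, and the 3 most correlated genes of a member spanning 0.5 log2. Of the carcinoma markers, every called one was named with GFP in H1299 and with GFP or ATPase dead in A549. Of 105 listed genes, 13 are not analysed here. Same-numbered H1299 arrays did not deviate together (median correlation -0.007, with 12 of 84 pairs over 0.1), so the numbers were not used as pairs. The design had assumed log2 values. Sequences were searched and figures drawn with Python 3.11.15, pandas 2.3.3 and matplotlib 3.10.9.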

Additional observations from a re-analysis of the deposited data

Results flagged for a closer look

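Knockdown effects that differed between cDNAs in a test of the difference itself, in log2, were the following. In H1299 the effect on DUSP1 was lower with WT than with GFP (-0.28), and that on DUSP10 lower with BRD MUT than with GFP (-0.37). In A549 the effect with WT or BRD MUT was lower than with GFP or ATPase dead for DUSP6 (-1.25), DUSP5 (-0.79), SPRY4 (-0.75), SPRED1 (-0.45) and SPRED2 (-0.40), and higher for SPRY1 (0.61). For DUSP10 and SPRED1 every A549 pair and every H1299 array, read against its shLuc mean, lay on opposite sides of 0; this difference between the lines was not tested. The share of all genes that lay on opposite sides in this way was not given. DUSP10 averaged -0.98 in A549 and 1.15 in H1299. SPRED1 averaged 0.35 in A549 and -0.13 in H1299, but was not called with GFP in H1299 (adjusted p = 0.124) or with WT or BRD MUT in A549 (adjusted p = 0.213), and its probe sets differed in sign in H1299.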

How the results depend on the processing

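Of 64 called member values, 37 kept the call and the direction in every alternative run and 27 lost the call in at least 1. The direction of 1 reversed: SPRED2 with WT or BRD MUT in A549 was -0.0215 (adjusted p = 0.868) with the mean of all its probe sets, of which 2 stayed under log2 5. The calls of DUSP5, DUSP6, DUSP10, SPRY2 and SPRY4 with S2sh7 in H1299, and of DUSP6 and DUSP10 in both A549 classes, were kept. Members called in the WT interaction were 2 with repeated quantile normalization, a filter of log2 over 6, eBayes with trend and robust, or array weights; in the BRD MUT interaction 3 with trend and robust and 0 with only the arrays compared; for ATPase dead against WT 5 and 0 under these; and for BRD MUT against WT 1 with the stricter filter, quantile normalization, or trend and robust. With shLuc, WT against GFP gave 1 with the mean of probe sets and 0 with only the arrays compared, and BRD MUT against GFP gave 0 with either, with single probe sets, no filter, or centred arrays. The additive A549 fit gave 8 with array weights. The cause was not tested, except that fits on only the arrays compared have fewer samples.

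Leaving out 1 H1299 array, the counts ranged from 5 to 5 with GFP, 6 to 7 with WT, 5 to 6 with BRD MUT and with ATPase dead, 1 to 2 for the WT and 0 to 1 for the BRD MUT interaction, 1 to 4 for ATPase dead against WT, 0 to 2 for WT and 0 to 1 for BRD MUT against GFP with shLuc, and stayed at 0 for the others. Leaving out 1 A549 pair gave 0 to 3 in the additive fit, 8 to 9 with GFP or ATPase dead, 2 to 5 with WT or BRD MUT, 3 to 4 for their difference and 6 to 7 between classes with S2sh7; the lone line of a class was then assumed to vary like the others. The replicate block, where numbers do not pair the samples, gave 5 members with ATPase dead, 6 with BRD MUT, 7 with WT and 5 with GFP and left the other H1299 counts as they were; 9 of 24 arrays correlated best with their own number. SPRY1 in both lines and DUSP4 in H1299 lay near or below the filter, which limits what could be read there.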
